A study of Mus musculus with 6 samples.

Results

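Mitochondrial ribosomal protein genes were taken as all symbols in the deposited count table that begin with Mrpl or Mrps followed by a digit, and that reached 1 CPM (counts scaled to the library total, per 1e6) in at least 2 of 4 libraries. Of 76 such symbols 75 passed, 46 of the large subunit (Mrpl) and 29 of the small subunit (Mrps), among 23306 rows of the table. The libraries hold RNA pulled down with haemagglutinin-tagged Rpl22, a protein of the cytosolic ribosome, from frontal cortex of male C57BL6 mice in which Cre under the parvalbumin promoter switches on the tag. Wild type mice were set against mice with a conditional knockout of Fxr1, also made with the parvalbumin Cre driver. The series has 3 libraries per genotype, and 4 were used here, replicates 2 and 3 of the wild type and replicates 1 and 3 of the knockout. Pairs of values follow that order throughout. The sources used here do not state age, the Fxr1 alleles or how many mice stand behind a library. The p-values therefore rest on library-to-library spread, and that spread may be technical. The fit behind them also draws on the spread of other genes, so p-values and intervals do not reflect the 4 libraries of a single gene alone.

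Mitochondria carry a ribosome of their own, which translates the few messages of the mitochondrial genome, all of them for subunits of the respiratory chain. The RNA of that ribosome comes from mitochondrial DNA, but each of its proteins is encoded in the nucleus, translated on cytosolic ribosomes and imported. A pull-down of tagged cytosolic ribosomes can therefore hold the Mrpl and Mrps messages in the state in which they are read. Cortical interneurons that express parvalbumin fire fast, inhibit their targets, have a high energy demand and are rich in mitochondria. In bulk RNA of this kind, fewer cells of a type and less RNA per cell cannot be told apart.

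Promoters of nuclear genes for mitochondrial proteins are known for sites of NRF1 and of ETS factors such as GABP, so the start regions of the members are shown first. RefSeq promoters of GRCm38.p6, from 250 bases before to 50 bases after a start, were found for 66 members, with 72 windows in all. Each sequence below is the 150 bases just before the start, 5′ to 3′ on the gene's strand, with matches of the NRF1 or ETS motif in capitals. Matches of the other motifs searched, such as an SP1 match in Mrps22, are left in lower case, and matches elsewhere in the window, such as a further NRF1 match of Mrpl45, are not printed. Mrpl12 and Mrps21 are shown as the members of highest length-scaled level in the large and small subunit, Mrpl45 for more than a single NRF1 match, and Mrpl34, Mrps22 and Mrps18a for ETS matches close to the start.
Mrpl12 (chr11:120484487-120484636, plus strand): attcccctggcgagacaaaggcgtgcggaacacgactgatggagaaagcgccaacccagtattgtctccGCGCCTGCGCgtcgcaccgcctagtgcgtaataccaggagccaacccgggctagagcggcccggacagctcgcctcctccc
Mrps21 (chr3:95871515-95871664, minus strand): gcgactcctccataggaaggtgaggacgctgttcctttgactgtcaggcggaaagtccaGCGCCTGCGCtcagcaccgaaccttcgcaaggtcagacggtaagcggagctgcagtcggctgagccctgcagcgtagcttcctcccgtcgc
Mrpl45 (chr11:97315566-97315715, plus strand): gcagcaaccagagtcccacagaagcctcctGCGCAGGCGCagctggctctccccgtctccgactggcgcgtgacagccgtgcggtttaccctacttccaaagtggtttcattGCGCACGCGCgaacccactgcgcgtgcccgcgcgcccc
Mrpl34 (chr8:71464776-71464925, plus strand): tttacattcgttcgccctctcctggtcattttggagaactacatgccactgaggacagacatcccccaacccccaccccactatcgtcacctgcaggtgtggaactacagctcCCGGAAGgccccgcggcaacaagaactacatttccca
Mrps22 (chr9:98601680-98601829, minus strand): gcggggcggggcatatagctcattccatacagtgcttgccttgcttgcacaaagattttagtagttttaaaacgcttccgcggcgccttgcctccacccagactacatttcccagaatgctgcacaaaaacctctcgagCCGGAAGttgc
Mrps18a (chr17:46110854-46111003, plus strand): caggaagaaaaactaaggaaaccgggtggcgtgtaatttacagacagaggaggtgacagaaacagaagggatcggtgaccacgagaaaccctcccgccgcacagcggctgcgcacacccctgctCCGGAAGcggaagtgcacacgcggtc

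The letters searched on both strands were GCGCA, any base and then GCGC for NRF1, CCGGAAG for ETS factors, AAGATGGC for YY1 and GGGCGG for SP1, and matches of different motifs were counted apart even where they overlapped. The ETS letters stood in 24 of 72 member windows (33.3%), against 16.5% of the 11978 windows of tested genes and 8.86% of all 32851 windows. NRF1 letters were in 12 member windows (16.7%), against 9.83% of the windows of tested genes and 4.6% of all. YY1 letters were also in 12 (16.7%), against 4.35% and 2.75%. SP1 letters went the other way, at 51.4% of member windows against 62.7% for tested genes, and 35.7% for all windows. Large subunit windows held NRF1 letters in 9 of 45 cases and ETS letters in 13, and small subunit windows held them in 3 and 11 of 27. Some members have several windows, such as Mrpl48 and Mrpl2, and no share per gene was taken. Median GC was 58.2% in member windows, 61.3% in windows of tested genes and 52.7% in all windows. Its part in these shares was not tested. A match describes the letters of a window and is not a measured site.

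Many members started close to another gene. In the GENCODE M21 annotation of mm10, 32 of 75 (42.7%) started within 1000 bases of a protein-coding gene that runs the opposite way, against 15.8% of 11415 tested protein-coding genes. Several of these partners encode mitochondrial proteins themselves. Mrpl46, of the large subunit, and Mrps11, of the small subunit, lie head to head on chromosome 7 with starts 412 bases apart. Mrps12 and Sars2, the mitochondrial seryl-tRNA synthetase gene, start 172 bases apart, Mrpl36 and the complex I gene Ndufs6 29 bases apart, and Mrpl43 and the helicase gene Twnk 779 bases apart. Exons of 23 members overlap those of another coding gene, and the strand setting of the counting is not given, so reads in such exons may belong to the neighbour.

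The 4 libraries held 9696126 to 10301280 counts, and their TMM scaling factors lay between 0.991 and 1.01. Fxr1 fell from 98.4 and 100.6 CPM (wild type) to 17.8 and 18.7 (knockout), a log2 fold change of −2.45 (SE 0.10; adjusted p = 1.77e-15 by the quasi-likelihood test of edgeR). Rpl22, whose tagged copy is the bait, did not pass (log2 fold change 0.06, SE 0.10). All 10 genes listed as markers of parvalbumin neurons were detected (Pvalb, Gad1, Gad2, Slc32a1, Kcnc1, Kcnc2, Erbb4, Syt2, Kcnab3 and Tac1). Their summed levels were 11704 and 11834 CPM (wild type) against 11364 and 11377 (knockout). Gad1 gave the largest part, at a mean of 4235 CPM, and Pvalb itself was at 254 CPM. The markers of other cells were present too: their sums over the libraries ranged from 1027 to 1125 CPM for 8 excitatory neuron genes, from 617 to 722 for 8 astrocyte genes, from 278 to 399 for 8 oligodendrocyte genes, from 34.1 to 38.1 for 6 microglia genes and from 13.4 to 23.6 for 6 endothelial genes. Knockout replicate 3 held the highest astrocyte, oligodendrocyte and endothelial sums (722, 399 and 23.6 CPM), and oligodendrocyte genes summed to 278 to 306 CPM in the other 3 libraries. No marker was at 0 in all libraries, and the part of these cells in the values below was not tested.

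As a group, mitochondrial ribosomal protein messages took a small and very even share of the pull-down. Their counts summed to 1607 and 1586 CPM (wild type) against 1592 and 1573 (knockout). The coefficient of variation over the 4 libraries was 0.889%, close to the 0.789% that counting error alone gives for sums of 15581 to 16334 counts. Large subunit genes summed to 989 and 999 CPM (wild type) against 981 and 971 (knockout), so both knockout libraries lay below both wild type libraries. The lowest of these sums, 971 CPM, and the lowest sum of all members, 1573 CPM, were in knockout replicate 3, the library with the most astrocyte and oligodendrocyte marker RNA; whether that moved the sums was not tested. Small subunit genes summed to 618 and 586 CPM (wild type) against 611 and 602 (knockout), and the genotypes overlapped. Small subunit sums were less even, with a coefficient of variation of 2.25% against 1.28% from counting error alone. Large over small, the sums had a ratio of 1.70 in wild type replicate 3 and of 1.60 to 1.61 in the other libraries.

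Levels of different genes were compared per kilobase of annotated exon, as CPM over exon length (RPKM). The large subunit median over genes was 8.28 RPKM and that of the small subunit 7.55 RPKM, beside 5.14 RPKM over all tested genes with a length. In single libraries the large subunit median exceeded the small subunit median by 0.14 and 0.23 on the log2 scale (wild type) and by 0.23 in each knockout library, an average of 0.21 ± 0.05 (SD, n = 4). With these lengths and members the large subunit was above the small in all 4 libraries. That did not hold in every library with members of at least 5 CPM in all libraries, without members that have a near-identical pseudogene, or with no length scaling. The difference was 0.13 with coding length, 0.48 without members whose exons overlap another gene, and −0.035 with no length scaling. Symbols do not always tell the subunit: Mrps30 and Mrps18a are known from structures as large subunit proteins, and Mrps36 as a subunit of the alpha-ketoglutarate dehydrogenase complex. With these moved or left out the difference was 0.10, and it was 0.12 without members that have a near-identical pseudogene.

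**Figure D1:**
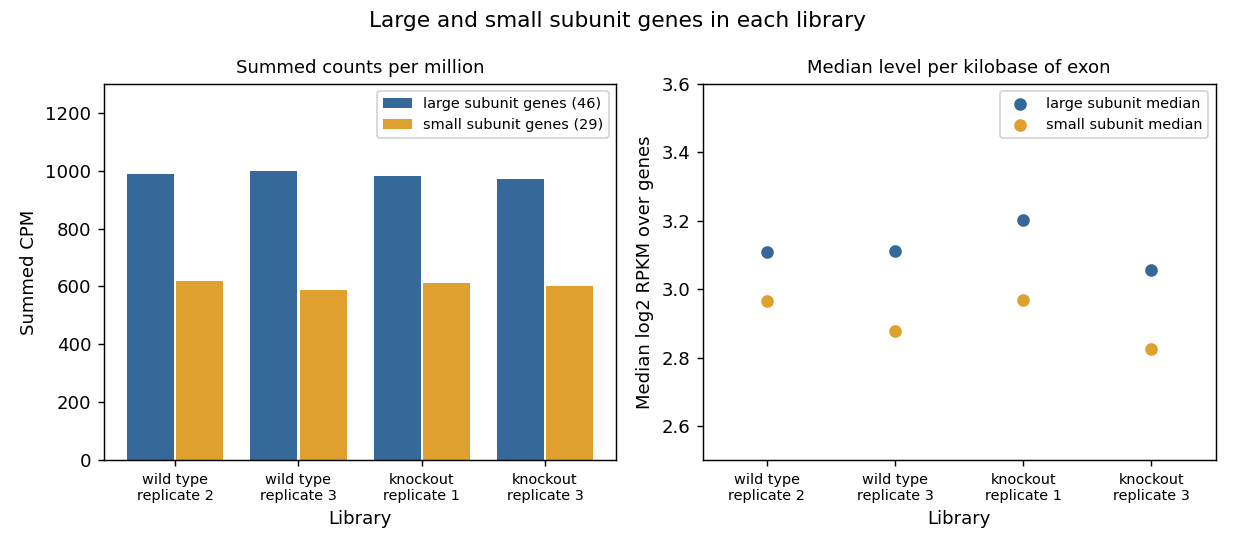
Left, summed CPM of the 46 large and 29 small subunit genes in each of the 4 libraries (bars start at 0). Right, the median log2 RPKM over the genes of each subunit in each library; the large subunit median is above the small subunit median in every library, by 0.14 to 0.23.

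Among large subunit genes Mrpl12 stood highest. It encodes the stalk protein that calls translation factors to the ribosome, and it lies on chromosome 11 at 120484613 to 120489065. Mrpl12 measured 62.4 and 61.7 CPM (wild type) against 55.7 and 57.3 (knockout), or 38.7 ± 2.16 RPKM (SD, n = 4). It ranked first of 75 by exon length, by the longest transcript and by coding length. Mrpl41 followed at 33.1 ± 0.937 RPKM, and Mrpl18, the relative of a bacterial protein that binds the small RNA of the large subunit, at 32.9 ± 2.03 RPKM. The difference between Mrpl41 and Mrpl18 was within their spread over libraries. Below a gap came Mrpl46 (18.4 ± 1.92 RPKM), Mrpl43 (18.2 ± 1.96) and Mrpl34 (16.2 ± 0.667), of which the first pair did not differ beyond their spread. By coding length Mrpl18 ranked 4 of 75, Mrpl41 5, Mrpl43 7, Mrpl34 27 and Mrpl46 34, so this order depends on the length used. Exons of Mrpl43, Mrpl46 and Mrpl18 overlap those of Twnk, Mrps11 and Tcp1, in that order. A pseudogene matches 372 coding bases of Mrpl41 at 97.8% identity. The levels of these genes are uncertain to that extent.

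By exon length, small subunit genes had no member as high as the leading 3 of the large subunit. Mrps21, a relative of a bacterial small subunit protein, was first at 17.6 ± 1.11 RPKM. Next were Mrps27, a protein with RNA-binding pentatricopeptide repeats (15.2 ± 0.235 RPKM), Mrps6 (14.9 ± 0.666), Mrps23 (13.9 ± 0.489) and Mrps12 (13.8 ± 0.965), whose bacterial relative guards the accuracy of decoding, and then Mrps15 (12.4 ± 0.494). Mrps27 and Mrps6, and likewise Mrps23 and Mrps12, did not differ beyond their spread. Exons of Mrps6 overlap those of Slc5a3 on the same strand, so its level is uncertain. The order depends on the length used: Mrps27 ranked 10 of 75 by exon length and 49 by coding length, and Mrps25 ranked 46 and 2. Of the 6576 exon bases of Mrps25, 4590 overlap exons of Nr2c2, so its counts and both its ranks are uncertain. A pseudogene matches 261 coding bases of Mrps21 at 97.3% identity, so its level is uncertain too.

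At the low end, Mrpl33 stood at 0.402 ± 0.097 RPKM and Mrpl32, a protein cleaved by the mitochondrial m-AAA protease before assembly, at 1.44 ± 0.149 RPKM. Mrpl13 measured 1.85 ± 0.128 RPKM. In the small subunit the lowest were Mrps16 (1.79 ± 0.193 RPKM), Mrps10 (1.79 ± 0.131) and Mrps17 (1.85 ± 0.155), which did not differ beyond their spread. By exon length, mean levels thus spanned 96.1-fold from Mrpl33 to Mrpl12. The span was narrower per kilobase of coding sequence, from 7.03 in Mrps18c to 98.3 in Mrpl12. For several low members the annotated exons are long beside the coding part, as in Mrpl33 with 7326 bases of exon and 321 of coding sequence. By coding length Mrpl33 ranked 73 of 75, but Mrps17 ranked 31 and Mrpl13 41. Near-identical pseudogenes exist for Mrpl32, Mrps10 and Mrps16, and exons of Mrpl13 overlap those of Mtbp, so these counts are uncertain too.

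**Figure D2:**
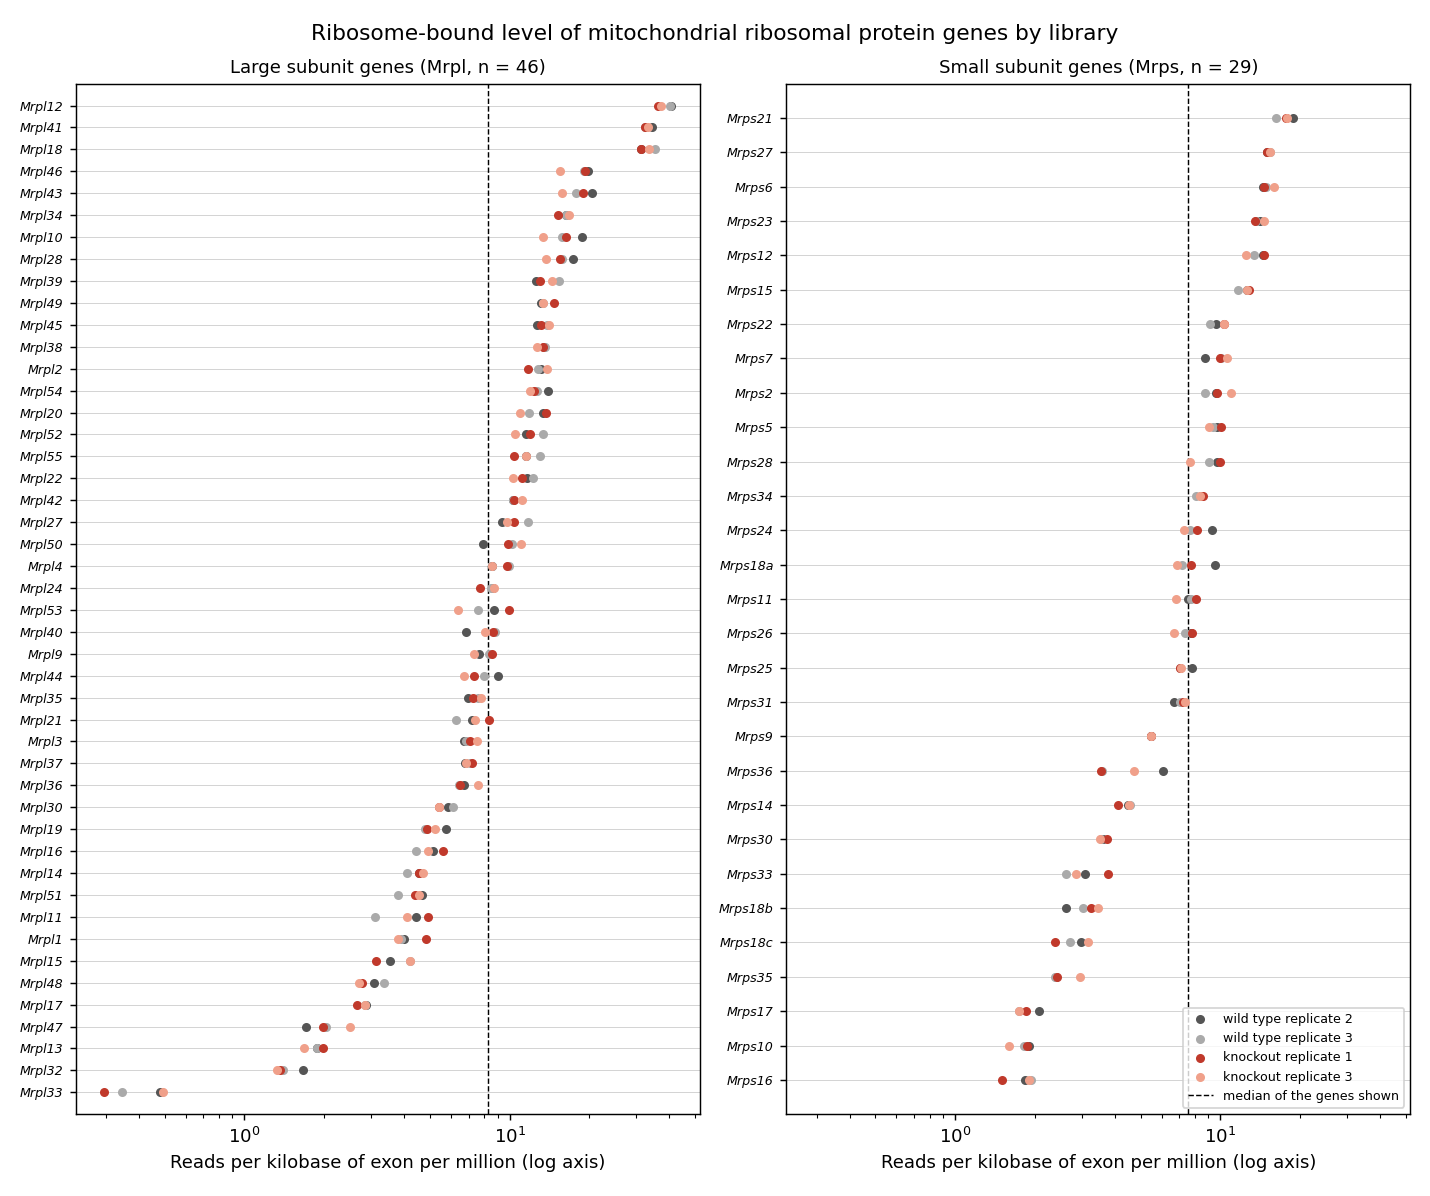
Level of each of the 75 members in RPKM (log axis), 1 point per library, large subunit left and small subunit right, with the median of each panel dashed. Mrpl12, Mrpl41 and Mrpl18 stand apart at the top of the large subunit, and points of the genotypes are interleaved for most genes.

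Just inside the threshold of 1 CPM lay Mrpl33 (a mean of 2.95 CPM), Mrps18c (3.02) and Mrpl14 (4.25). The only symbol outside it was Mrpl23, with 3 and 8 counts (wild type) against 7 and 5 (knockout), or 0.309 to 0.777 CPM. The annotation holds a processed pseudogene, Mrpl23-ps1, that matches 421 coding bases of Mrpl23 at 100% identity, and the sources used here do not say how reads with several matches were counted. Pseudogenes with at least 95% identity over 100 or more coding bases exist for 16 of the 75 members. Among them are Mrps36 with 4 such copies, Mrps18b (99.8% over 414 bases), Mrps33 (99.7% over 318 bases) and Mrpl48 (98.1% over 633 bases). Counts of these members are uncertain to that extent. Their median level was 5.90 RPKM, against 8.18 RPKM for the 59 members without such a copy.

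Members with a bacterial counterpart and those found in mitochondria alone were set side by side. In the large subunit the 27 members with a counterpart had a median of 7.32 RPKM and the 19 without one 11.6 RPKM. By coding length the medians were 27.6 and 34.8. In the small subunit by symbol the 17 members with a counterpart, counting the Mrps18 paralogs, had a median of 7.82 RPKM and the 12 without 7.32 RPKM. The 17 include Mrps18a and the 12 include Mrps30 and Mrps36, none of them a small subunit protein by structure. No median was taken without these genes. The Mrps18 family descends from a single bacterial protein, and its 3 members differed in level: Mrps18a measured 7.82 ± 1.17 RPKM, Mrps18b 3.08 ± 0.355 and Mrps18c 2.80 ± 0.341. Mrps18a, the large subunit protein of the family, was above both others by more than the spread of the libraries, and Mrps18b and Mrps18c did not differ beyond it.

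No member passed the test for a difference between the genotypes. Across 12449 tested genes 4 passed (0.0321%), 2 higher and 2 lower in knockout (0.0161% each), at a Benjamini-Hochberg adjusted p under 0.05 from edgeR quasi-likelihood fits. Of the 75 members 0 passed in either direction, and 0 had an unadjusted p under 0.05, which 3.23% of all tested genes had. DESeq2, limma voom and edgeR without a filter on low counts also gave 0 members past the threshold and 0 with an unadjusted p under 0.05. Fold changes on the log2 scale ran from −0.27 to 0.27 with a median standard error of 0.14. The 95% interval lay within a 1.5-fold change either way for 64 members, and within a 2-fold change for all 75. The other 11 were members with mean levels of at most 13.3 CPM, among them Mrpl33, Mrps18c and Mrps36.

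**Figure D3:**
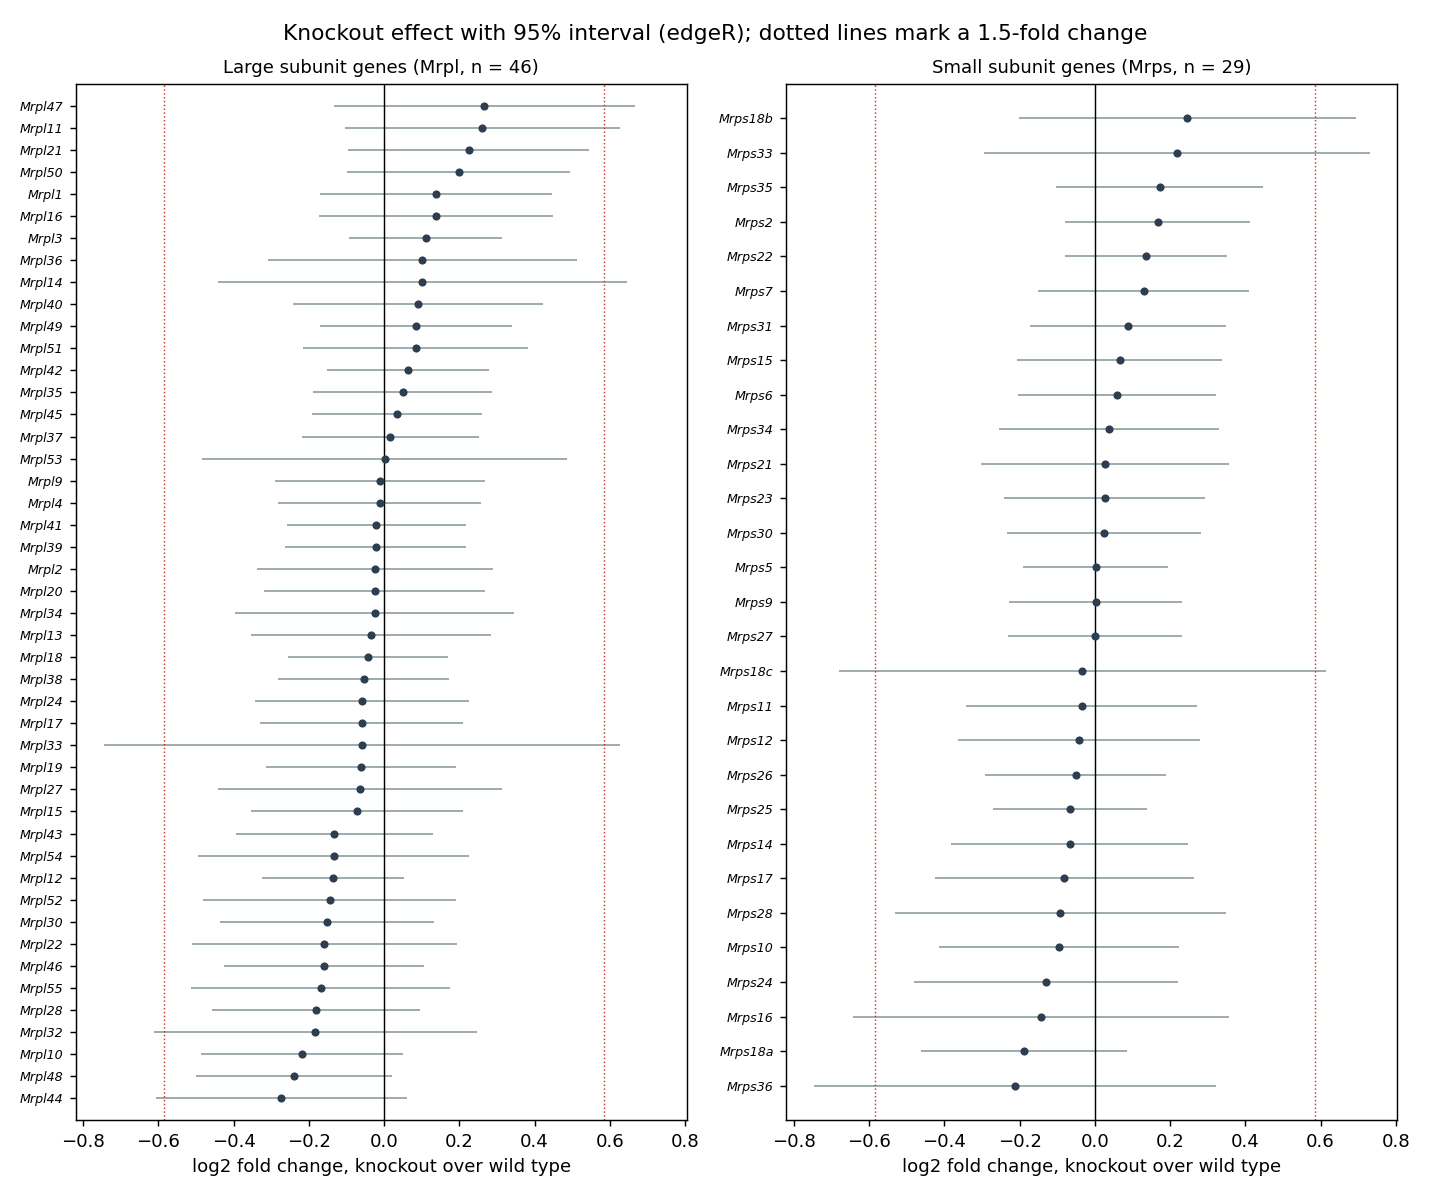
Log2 fold change of each member, knockout over wild type, with its 95% interval derived from the edgeR fit (2 libraries per genotype), large subunit left and small subunit right. Every interval includes 0, and 64 of 75 stay between the dotted lines that mark a 1.5-fold change.

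The large subunit genes had a median log2 fold change of −0.02, with 17 above and 29 below 0, and the small subunit genes one of 0.00197, with 15 above and 14 below. Over all tested genes the median was −0.00146, with 6169 above and 6280 below 0. Libraries of the genotypes did not overlap for 21 of 75 members, or 28%, against 30.2% of all tested genes. In the large subunit 11 of 46 were lower and 4 higher in both knockout libraries, and in the small subunit 0 of 29 were lower and 6 higher, where the shares over all tested genes were 15.4% lower and 14.8% higher. The difference between the subunits was not tested.

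Mrpl48 had the smallest unadjusted p of the members (0.0689 by edgeR, adjusted p = 0.998). It measured 25.2 and 27.5 CPM (wild type) against 22.5 and 22.1 (knockout), a log2 fold change of −0.24 (SE 0.13). Both knockout libraries were lower, but a pseudogene copies the whole coding sequence, and 708 bases of exon overlap Rab6a. Mrpl44, a protein related to ribonuclease III, measured 14.9 and 13.2 CPM (wild type) against 12.1 and 11.1 (knockout), with a log2 fold change of −0.27 (SE 0.16). That was the largest size of all members, again with no overlap of the genotypes, though 126 bases of exon overlap Wdfy1.

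The stalk of the large subunit is built from Mrpl10, Mrpl11 and Mrpl12, and these did not share a direction. Mrpl12 was lower in both knockout libraries (log2 fold change −0.14, SE 0.09). Mrpl10, which anchors Mrpl12, measured 32.0 and 27.0 CPM (wild type) against 27.8 and 22.7 (knockout) (−0.22, SE 0.13), and the genotypes overlapped. Mrpl11, at the stalk base, measured 139 and 103 counts (wild type) against 161 and 136 (knockout) (0.26, SE 0.18), again with overlap.

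Other members of small p were Mrpl21 (14.5 and 12.6 CPM against 16.8 and 14.9), whose knockout libraries were higher, and Mrps2 (28.2 and 25.6 CPM against 28.3 and 32.0), a small subunit protein with a bacterial relative, likewise higher in both. A pseudogene matches 565 coding bases of Mrpl21 at 97.2% identity, and 117 bases of its exons overlap Ighmbp2. Mrpl50 and Mrpl47 had log2 fold changes of 0.20 (SE 0.14) and 0.27 (SE 0.19), and their genotypes overlapped. Exons of Mrpl47 overlap those of Ndufb5 and Actl6a, by up to 616 bases. Mrps18a measured 35.1 and 26.5 CPM (wild type) against 28.5 and 25.4 (knockout), so its log2 fold change of −0.19 (SE 0.13) came with overlap and a single high library, wild type replicate 2. Mrps18b (0.25, SE 0.22) and Mrps18c (−0.03, SE 0.31) had wider errors.

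Spread between libraries was small for most members. The highest library exceeded the lowest by a median of 1.19-fold and by at most 1.71-fold, in Mrps36. Mrps9 was steadiest, with 31.5 to 31.7 CPM in the 4 libraries. The variance over the 4 libraries was a median of 1.11 times the counting variance, 1.35 in the large and 0.841 in the small subunit, against 1.45 for the 7556 tested genes in the same range of CPM. The ratio was highest for Mrpl15 (6.54), which measured 29.9 and 35.7 CPM (wild type) against 26.7 and 35.9 (knockout). Both its low values were in wild type replicate 2 and knockout replicate 1, and both high values in the replicates 3.

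Subunits of the mitochondrial ribosome that carry other names were examined beside the members: Dap3, Ptcd3, Chchd1, Aurkaip1, Gadd45gip1, Mrp63 (now Mrpl57) and Ict1 (now Mrpl58). Of these 7 genes 0 passed, and their median log2 fold change was 0.03. Aurkaip1, a small subunit protein, reached 37.8 ± 3.51 RPKM, a level within the spread of Mrpl12. Dap3, a GTP-binding small subunit protein, was at 9.42 ± 0.152 RPKM and Gadd45gip1, at the exit tunnel of the large subunit, at 13.2 ± 0.954 RPKM. Ict1, a release factor-like protein that frees stalled ribosomes, measured 22.6 and 25.5 CPM (wild type) against 22.3 and 19.1 (knockout) (log2 fold change −0.21, SE 0.14) and did not pass.

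The rest of the mitochondrial translation system likewise held no gene past the threshold. Of 30 assembly factors 0 passed, with 13 above and 17 below 0; 2 had an unadjusted p under 0.05, which 3.23% of all tested genes had. The 2 were Eral1, a chaperone of small subunit RNA (12.8 and 10.8 CPM against 13.7 and 16.3; log2 fold change 0.35, SE 0.16), and Mrm1, a methyltransferase of large subunit RNA (14.4 and 14.0 against 9.84 and 12.3; −0.36, SE 0.17), both at an adjusted p of 0.998 by edgeR. Grsf1, an RNA-binding protein of mitochondrial RNA granules, was the assembly factor of highest level, at 48.1 ± 0.591 RPKM. Translation factors (18 genes) had 11 above and 7 below 0, led in level by the elongation factor gene Tufm (37.4 ± 2.14 RPKM), the RNA stability factor gene Lrpprc (28.3 ± 0.929) and the elongation factor gene Gfm1 (26.0 ± 1.54). Of 10 genes for the expression of mitochondrial DNA 7 were above and 3 below 0; Tfam, which packs mitochondrial DNA, stood at 9.98 ± 0.823 RPKM and Polrmt, the RNA polymerase, at 9.52 ± 0.516.

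Of 20 genes for mitochondrial tRNA charging 0 passed, with 13 above and 7 below 0 and a median log2 fold change of 0.04. Lars2, the leucyl-tRNA synthetase gene, held 1309 and 1340 counts (wild type) against 3669 and 1239 (knockout). Its log2 fold change of 0.87 (SE 0.76) thus came from knockout replicate 1. That library also held the largest share of the ribosomal RNA precursor Rn45s, 0.711% of counts against 0.283% to 0.315% in the others. Whether that moved with the Lars2 count for a shared cause was not tested.

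Messages for the machines on either side of the mitochondrial ribosome were set beside the members. The 78 nuclear genes of the respiratory chain had a median level of 45.4 RPKM and the 85 cytosolic ribosomal protein genes one of 15.3 RPKM, both above the 8.10 RPKM of the members. Cytosolic ribosomal protein genes have many processed copies, so their level is uncertain. Median log2 fold changes were −0.01 over 76 tested respiratory chain genes, of which 0 passed, and −0.07 over 78 tested cytosolic ribosomal protein genes, of which 1 (Rpl29) passed, higher in knockout. The members had a median of −0.02, between these. Non-overlap of the genotypes, at 30.2% over all tested genes, was 44.9% for cytosolic ribosomal protein genes (29 lower and 6 higher in knockout), 22.4% for respiratory chain genes (11 lower, 6 higher) and 28% for the members (11 lower, 10 higher).

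**Figure D4:**
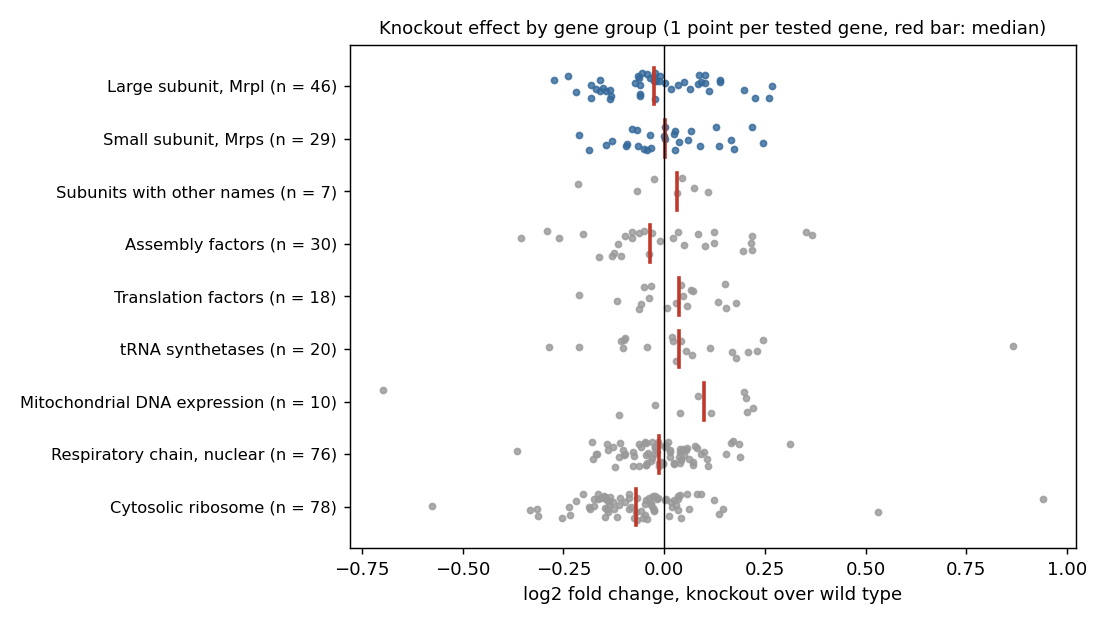
Log2 fold change, knockout over wild type, of every tested gene in 9 groups, with the group median as a red bar and vertical scatter for legibility alone. Members of both subunits lie between −0.27 and 0.27, and the point near 0.87 among tRNA synthetases is Lars2.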

How the data were processed

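Libraries of ribosome-bound RNA were prepared with a SMARTer stranded total RNA kit, per the labels' protocols. STAR and the mm10 build are named in the submitters' processing notes. The deposited values are whole-number read counts for each gene symbol, not normalized. Which counter, annotation and strand setting the authors used is not stated. Columns that could be tied by title to 1 sample were used, and 2 columns were left out. Replicates were numbered in accession order.

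The fit was run with edgeR 4.0.16 under R 4.3.3 (TMM, filterByExpr, robust quasi-likelihood fits, adjustment over all 12449 tested genes, threshold 0.05). Standard errors were derived from the fit, as the size of the log2 fold change over the square root of the quasi-likelihood F statistic. Intervals of 95% used these errors and a t quantile with the degrees of freedom of the fit. CPM and RPKM values use library totals and exon-union lengths of GENCODE M21. Copies were sought with BLAST 2.17.0 (95% identity, 100 bases). The fit was also run on simulated data from these means (12327 genes tested). It found 88.1% of 67 genes changed 1.5-fold, 98.5% of 67 changed 2-fold and 100% of 66 changed 4-fold, with 13 false calls among 204. Changed genes were drawn only from those above a CPM floor, so low members such as Mrpl33 were not covered. Each gene took the dispersion of the trend, and far more genes were changed than passed in the real fit. These shares therefore do not give the chance of finding a changed member. Alternatives were DESeq2 1.42.0 (its Wald test and its size factors), library totals, limma voom (limma 3.58.1), no filter, other lengths and members, and each library left out. No 2 libraries agreed within sampling noise (chi-square per degree of freedom 2.9 to 6).

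Members, lists and motifs were chosen with earlier results of these data known. Genes were named by a rule: per subunit, the 6 of highest and 3 of lowest RPKM, the 10 members of smallest p, those near the CPM threshold, several with a known special role, and in each list those of highest RPKM or smallest p; not every one is printed. Others, such as Mrpl15, Mrps9, Mrps25 and Mrps33, were chosen after their values were seen.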

Additional observations from a re-analysis of the deposited data

How the results depend on the processing

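The count of 0 changed members held under all 9 other fits, whose smallest adjusted p for any member was 0.799; with a library left out, 1 to 3 members had an unadjusted p under 0.05. Over these fits 18 members stayed above 0, 16 stayed below and 41 changed sign. Fxr1 passed in all 9, with log2 fold changes from −2.47 to −2.42. The count of 4 changed genes became 1 with library totals, 13 with no filter on low counts and 2 by the Wald test of DESeq2, and ranged from 9 to 48 with each library left out (dropping replicate 2 or 3 of the wild type gave 9 and 25, and dropping replicate 1 or 3 of the knockout gave 29 and 48). Leaving out each library gave median log2 fold changes from −0.015 to 0.0062 for all members. The range was −0.036 to −0.0032 for the large subunit and −0.0096 to 0.038 for the small subunit. For the spread between replicates, each gene's log2 level was set against its own wild type mean, and the median taken over each group. The SD of these medians, pooled within genotype, was 0.0127 for all members, 0.00995 for the large subunit and 0.0286 for the small subunit. Dropping replicate 2 of the wild type or replicate 3 of the knockout moved each median log2 fold change by more than the SD of its group. Either drop also turned the median of all members from below to above 0. The level difference of 0.21 (log2) between the subunits ranged from 0.20 to 0.23 with a library left out. It became 0.10 with subunits assigned by structure, 0.31 with the longest transcript, 0.13 with coding length, −0.035 with no length scaling, 0.30 with means in place of medians, 0.48 without members whose exons overlap another gene, and 0.12 without members that have a near-identical pseudogene, an alternative chosen after seeing the data. No value above shows what causes these shifts, and the cause was not tested here. No paired analysis was possible because replicates were numbered by accession and share no label. For 2 libraries against 2 the smallest two-sided p of an exact permutation test is 0.333. For 11 members, with mean levels of at most 13.3 CPM, the 95% interval reaches past a 1.5-fold change, so a change of that size is not excluded there by its interval.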
